A study of Homo sapiens with 6 samples.

Results

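The genes described here are 34 genes of protein folding, membrane translocation and stress signalling in the endoplasmic reticulum (ER), out of 60856 features in the deposited tables. They were taken as the rows whose Ensembl identifier carries a symbol on a fixed list, each symbol matched 1 identifier. The list names genes by their function and was chosen with earlier results of these data known, so its counts are given as descriptions. Their messenger RNA was followed in Jurkat cells, an established human T lymphocyte leukemia line labelled as wild type. There were 3 libraries from cells given the vehicle dimethyl sulfoxide (DMSO, 0.1%) and 3 from cells given 1 µM bisphenol AF (BPAF), a fluorinated relative of bisphenol A. The vehicle content of the BPAF cultures is not given in the labels. The sample labels and the design text give 12 h of exposure, whereas the treatment protocol gives 24 h, so the exposure time is uncertain. Both groups came from this single line, and replicates are called biological in the design text.

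Secreted and membrane proteins enter the ER through the SEC61 channel, lose their signal peptide to the signal peptidase, and fold with the help of chaperones, lectins and disulfide isomerases. When unfolded protein accumulates, the sensors IRE1 (gene ERN1), PERK (gene EIF2AK3) and ATF6 start the unfolded protein response (UPR). ATF6 and the spliced form of XBP1 raise the chaperone genes, and PERK slows translation while favouring ATF4, DDIT3 and PPP1R15A. In T cells the same machinery folds and delivers the T-cell receptor, its coreceptors and secreted cytokines. Gene-level counts do not separate spliced from unspliced XBP1.

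The chaperone genes are known to be reached through the ER stress response element (ERSE) of their promoters, so it was looked for here. The ERSE was searched as CCAAT, any 9 bases and CCACG on both strands of RefSeq promoters (GRCh38.p14, 250 bases before to 50 after each annotated start). It occurred in 27 of 35116 promoters, 0.0769%, and in at least 1 promoter of 8 of the 32 listed genes that had a promoter sequence. The matches are shown because they are the sequence feature that these 8 genes share, read in the CCAAT to CCACG direction with both boxes in capitals.

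HSPA5, chr9:125241391-125241409: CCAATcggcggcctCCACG
HSP90B1, chr12:103930216-103930234: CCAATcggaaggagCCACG
HSP90B1, chr12:103930321-103930339: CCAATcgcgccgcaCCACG
CALR, chr19:12938384-12938402: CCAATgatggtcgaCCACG
CANX, chr5:179698778-179698796: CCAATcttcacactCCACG
PDIA6, chr2:10812853-10812871: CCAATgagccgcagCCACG
CRELD2, chr22:49918554-49918572: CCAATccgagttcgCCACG
SERP1, chr3:150546710-150546728: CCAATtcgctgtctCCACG
XBP1, chr22:28800603-28800621: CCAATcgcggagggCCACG

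The matches in CALR, CRELD2 and SERP1, and the second in HSP90B1, lie on the strand opposite to the gene. The related ERSE-II, searched as ATTGG, any 1 base and CCACG, occurred in 19 promoters (0.0541%), among them HERPUD1, SDF2L1 and HYOU1, which holds it at 2 positions.

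HERPUD1, chr16:56932025-56932035: ATTGGgCCACG
SDF2L1, chr22:21642114-21642124: ATTGGtCCACG
HYOU1, chr11:119057274-119057284: ATTGGaCCACG

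The shorter UPR element core TGACGTG was in 692 promoters (1.97%), including those of HYOU1, SEC61A1, SSR3 and SSR4. In HYOU1 it overlaps the second ERSE-II (chr11:119057380-119057390). A match is a description of letters and does not show that a factor bound there.

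With BPAF, 3 of the 34 genes fell and 0 rose: PPP1R15A, HSPA5 and SEC61B (edgeR quasi-likelihood test, Benjamini-Hochberg adjusted p under 0.05 over all 15490 genes tested). That is 8.82% of the 34, beside a background of 3.4% of all tested genes called lower and 2.65% called higher. All 34 passed the filter on low counts. At an unadjusted p under 0.05, 13 of the 34 were lower and 0 higher, against 10.5% of all tested genes lower and 9.36% higher. In 16 of them all BPAF libraries lay below all DMSO libraries, against 12.8% of tested genes, and in 0 all lay above, against 12% of tested genes. These 34 genes were measured more precisely than most, with a median standard error (SE) of 0.041 on the log2 scale against 0.073 over all tested genes. Among the 10167 tested genes with an average level at or above that of the lowest of the 34, 5.11% were called lower, 14.98% were lower at an unadjusted p under 0.05, and 17.7% lay lower without overlap. In bulk RNA, fewer cells with a transcript and less transcript per cell cannot be told apart.

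The shift was small and shared by most of the genes on the count scale. The median log2 fold change was -0.064, against 0.0019 over all tested genes, and the range ran from -0.31 to 0.08. Over the 10167 genes at or above the level of the lowest of the 34, the median was -0.012. Below 0 were 27 of the 34 (79.4%), beside 49.2% of all tested genes and 55.6% of those 10167. On the deposited TPM scale, a transcript abundance corrected for length, the direction turned: with log2(TPM + 1) the median of the 34 was 0.030 and 12 were below 0. The median of all tested genes was 0.078 there, so the 34 lay 0.048 below it, and 25 of the 34 were below it. Later gene values with TPM are signed against 0, not against that median. The 34 genes took 0.686 ± 0.0037% of the counts in DMSO (SD, n = 3) and 0.672 ± 0.0075% in BPAF, and the ranges did not overlap. Their summed TPM was 5182 ± 58.6 and 5241 ± 60.5, with overlap. The plot of library values shows the count scale gene by gene, as CPM, the count in a library scaled to a common library size with TMM factors. The plot of fold changes sets the count scale beside the TPM scale.

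**Figure D1:**
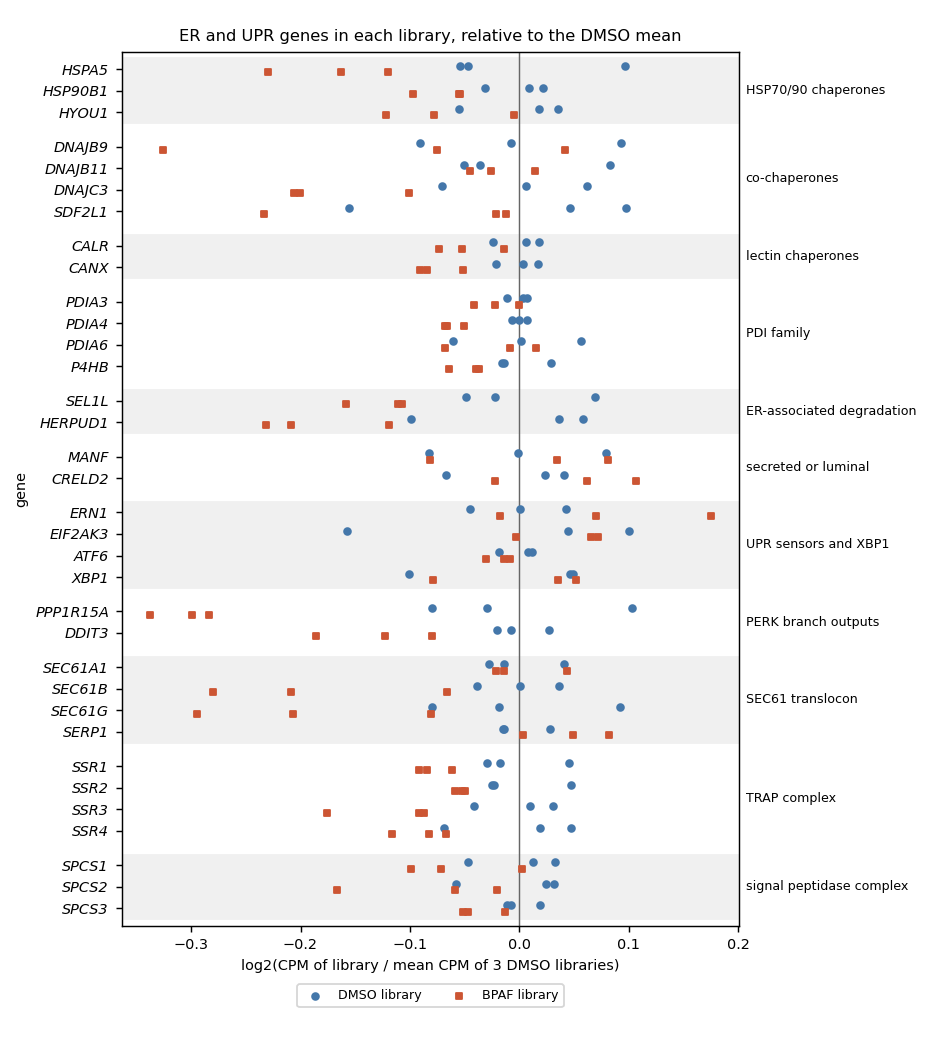
Each row is a gene and each point a library, placed by the log2 ratio of its CPM (TMM-scaled) to the mean of the 3 DMSO libraries; circles are DMSO, squares BPAF, and grey bands separate roles. The squares of PPP1R15A, HSPA5 and SEC61B lie left of all their circles, whereas those of XBP1, SEC61A1 and MANF mix with them.

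The libraries held 20253656 to 22617613 counts, and the ranges of the groups overlapped. All 12 T lymphocyte markers were at 1 CPM or more, with summed levels of 3102 to 3191 CPM in DMSO and 2992 to 3144.5 in BPAF. Of the B cell markers, CD79A was at 12.6 to 15.1 CPM in DMSO and 11.7 to 12.4 CPM in BPAF, while MS4A1 and CD79B had at most 1 count in a library. Erythroid globin transcripts summed to 22.7 to 23.4 and 19.4 to 23.9 CPM. Monocyte, fibroblast and epithelial markers summed to at most 3.01 CPM in any library, with DCN and 3 of 4 epithelial markers at 0 in all 6. The part of these transcripts in the results below was not tested.

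PPP1R15A (ENSG00000087074, GRCh38 chromosome 19, 48872392 to 48876057) encodes GADD34, the phosphatase subunit that reverses the translation block set by PERK. It was at 21.5, 22.2 and 24.4 CPM in DMSO and at 17.9, 18.6 and 18.4 CPM in BPAF. All BPAF libraries lay below all DMSO libraries, and it fell by 0.31 on the log2 scale (SE 0.073, edgeR adjusted p = 0.0165), which is 19.1% lower. This was the largest fall among the 34 genes. Its exons overlap no other annotated gene, and its counts ran from 380 to 500 a library. Over 18 alternative fits, 13 passed, with adjusted p from 0.00348 to 0.303. It was lost on both TPM scales and without DMSO replicate 3 (edgeR adjusted p = 0.0795), BPAF replicate 1 (0.0827) or BPAF replicate 3 (0.0590).

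The promoter of PPP1R15A holds none of the 3 ER stress elements searched above. It does hold the cyclic AMP response element TGACGTCA, a site of the ATF and CREB factors, looked for after this promoter had been seen and present in 649 of the 35116 promoters (1.85%). The 250 bases before its start (chr19:48872171-48872420, plus strand) are shown with that element in capitals, as the promoter of the gene with the largest fall.

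PPP1R15A: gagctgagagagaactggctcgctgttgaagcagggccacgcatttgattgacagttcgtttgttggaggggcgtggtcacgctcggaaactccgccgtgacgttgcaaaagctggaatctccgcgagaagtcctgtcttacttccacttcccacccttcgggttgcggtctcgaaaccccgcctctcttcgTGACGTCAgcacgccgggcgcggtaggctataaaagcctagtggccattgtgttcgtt

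DDIT3, the other PERK output on the list, encodes CHOP, a transcription factor tied to cell death under prolonged stress. It was at 10.8, 10.9 and 11.2 CPM in DMSO and at 10.4, 10.1 and 9.67 CPM in BPAF. The groups did not overlap, and the log2 fold change of -0.13 (SE 0.097) did not pass (edgeR adjusted p = 0.513). DDIT3 had 206 to 237 counts a library, none of them whole as deposited, and its exons overlap other genes on both strands.

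The sensors gave no call. ERN1 was at 23.9, 23.2 and 22.5 CPM in DMSO and at 24.3, 22.9 and 26.2 CPM in BPAF, 0.079 on the log2 scale (SE 0.069, edgeR adjusted p = 0.588). EIF2AK3 was at 20.04, 23.05 and 23.97 CPM in DMSO and at 23.5, 22.3 and 23.4 CPM in BPAF (0.047, SE 0.074, edgeR adjusted p = 0.795). In both, the groups overlapped, and EIF2AK3 was lower in 1 DMSO library than in any other. ATF6 was at 94.5, 94.3 and 92.6 CPM in DMSO and at 92.9, 93.3 and 91.8 CPM in BPAF, the steadiest of the sensors (-0.018, SE 0.037, edgeR adjusted p = 0.850). XBP1, the transcription factor whose messenger RNA is spliced by IRE1, was at 72.9, 65.8 and 73.1 CPM in DMSO and at 66.9, 73.2 and 72.4 CPM in BPAF. Its groups overlapped almost fully, at 0.0035 on the log2 scale (SE 0.049, edgeR adjusted p = 0.984).

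HSPA5 (ENSG00000044574, chromosome 9, 125234853 to 125241330) encodes BiP, the HSP70 chaperone of the ER lumen that also holds the sensors inactive. It was at 721, 725 and 800.3 CPM in DMSO and at 638, 669 and 689 CPM in BPAF. Every BPAF library was below every DMSO library, and DMSO replicate 3 stood apart at the top. The fall was 0.17 on the log2 scale (SE 0.041, edgeR adjusted p = 0.0282), which is 11.1% lower. Without DMSO replicate 3 it was smaller, 0.12, and still passed (edgeR adjusted p = 0.0357). The call was lost in limma-voom (adjusted p = 0.0554), on both TPM scales, and without BPAF replicate 1 (0.107) or BPAF replicate 2 (0.0850), within a range of 1.2e-06 to 0.658 over 18 alternatives. The promoter is shown with its exact ERSE match in capitals (chr9:125241344-125241593, minus strand, 250 bases before the start), the match beginning 66 bases upstream. Near matches were not searched.

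HSPA5: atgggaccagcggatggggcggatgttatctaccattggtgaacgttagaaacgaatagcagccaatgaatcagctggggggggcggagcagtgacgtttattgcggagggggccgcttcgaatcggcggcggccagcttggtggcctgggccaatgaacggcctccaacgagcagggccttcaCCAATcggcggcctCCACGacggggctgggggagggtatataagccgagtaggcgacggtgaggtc

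The other large chaperones were slightly below their DMSO level on the count scale and were not called. HSP90B1, the ER member of the HSP90 family, was at 958, 949 and 923 CPM in DMSO and at 882, 908 and 909 CPM in BPAF. Its groups did not overlap, at -0.069 on the log2 scale (SE 0.028, edgeR adjusted p = 0.159). HYOU1, a nucleotide exchange factor for BiP, had overlapping groups and a log2 fold change of -0.067 (SE 0.034). Both were above 0 with TPM, at 0.029 and 0.038 on the log2(TPM + 1) scale.

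Of the BiP co-chaperones, 0 of 4 were called, and all 4 were below 0 on the count scale. So were 49.2% of all tested genes and 55.6% of those at the level of the 34 genes or above. DNAJC3, which encodes the PERK inhibitor p58IPK, was at 35.3, 37.2 and 38.7 CPM in DMSO and at 32.3, 32.2 and 34.6 CPM in BPAF. Its groups did not overlap, and the log2 fold change was -0.17 (SE 0.058, edgeR adjusted p = 0.0963). DNAJB9, a classical XBP1 target, was the least precise of the 34 genes, at -0.11 (SE 0.12) from 157 to 188 counts a library. SDF2L1 and DNAJB11 stood at -0.087 and -0.018, with overlapping groups, and DNAJB11 was above 0 with TPM (0.033).

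The lectin chaperones hold glycoproteins during folding. CALR, the most abundant gene of the list by TPM, was at 1292, 1255 and 1282 CPM in DMSO and at 1231, 1263 and 1213 CPM in BPAF. Its groups overlapped, at -0.046 on the log2 scale (SE 0.028, edgeR adjusted p = 0.374). CANX, its membrane-bound partner, was at 665, 676 and 683 CPM in DMSO and at 634, 636 and 651 CPM in BPAF. CANX showed no overlap and stood at -0.075 on the log2 scale (SE 0.027, edgeR adjusted p = 0.111). With TPM, CALR and CANX were above 0 (0.044 and 0.037).

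Disulfide isomerases form and reshuffle the disulfide bonds of new proteins, and 0 of 4 were called. PDIA4 was at 256, 254 and 253 CPM in DMSO and at 246, 243 and 243 CPM in BPAF. The replicates of PDIA4 were tight enough that the groups stood apart at -0.061 on the log2 scale (SE 0.028, edgeR adjusted p = 0.217). P4HB also showed no overlap (-0.047), whereas PDIA3 (-0.021) and PDIA6 (-0.020) overlapped. With TPM all 4 were above 0, from 0.027 to 0.11.

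SEL1L and HERPUD1 belong to ER-associated degradation, which returns misfolded proteins to the cytosol for the proteasome. SEL1L was at 96.1, 94.4 and 102 CPM in DMSO and at 90.4, 90.7 and 87.5 CPM in BPAF (log2 fold change -0.13, SE 0.040, edgeR adjusted p = 0.0710). HERPUD1 was at 31.7, 28.4 and 31.2 CPM in DMSO and at 25.9, 28.0 and 26.3 CPM in BPAF (-0.19, SE 0.064, edgeR adjusted p = 0.0916). In both genes all BPAF libraries were below all DMSO libraries. That held for 12.8% of all tested genes and 17.7% of those at the level of the 34 genes or above. The deposited TPM of SEL1L went the other way, from 19.5 ± 1.19 to 21.9 ± 2.04 (SD, n = 3), while that of HERPUD1 went from 37.9 ± 1.56 to 33.7 ± 3.19.

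MANF and CRELD2, small luminal proteins that ER stress induces and releases, were above 0 with overlapping groups, at log2 fold changes of 0.011 (SE 0.047) and 0.050 (SE 0.064).

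**Figure D2:**
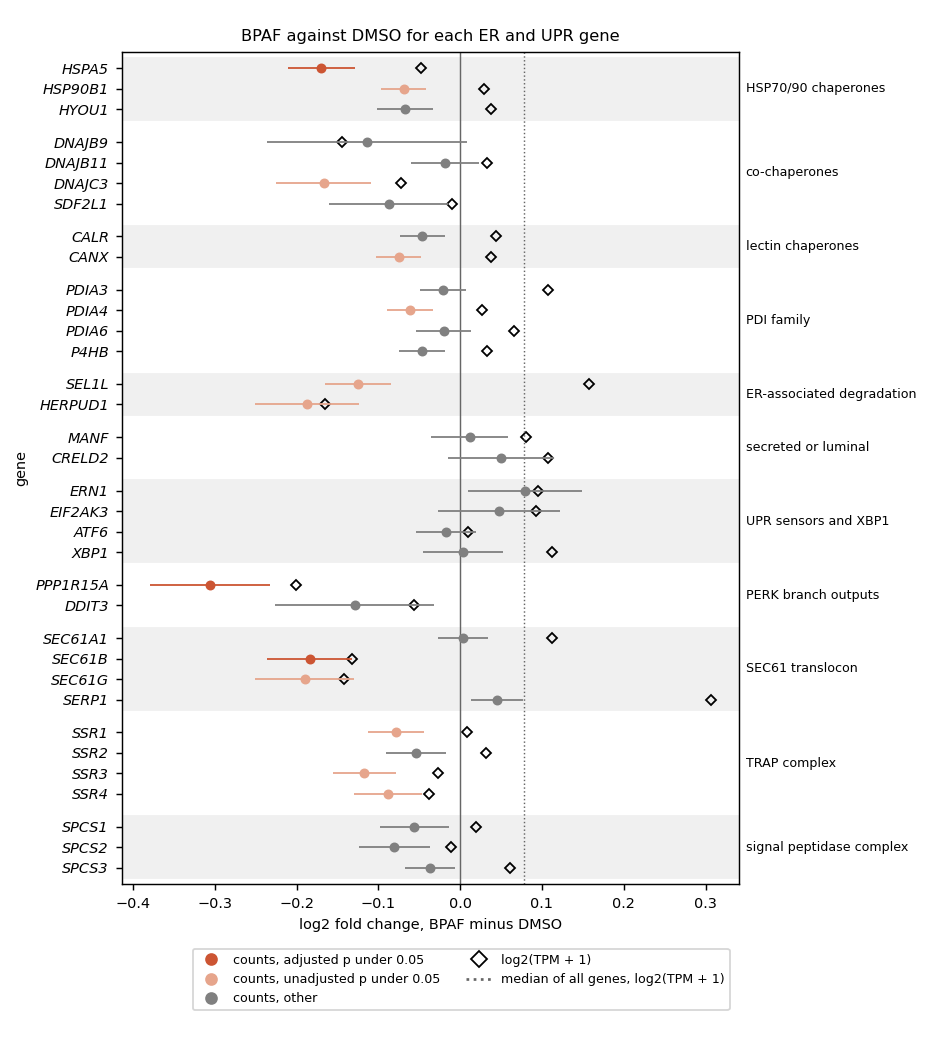
Filled circles give the log2 fold change from counts with its SE (dark, adjusted p under 0.05; light, unadjusted p under 0.05; grey, other), open diamonds the difference in mean log2(TPM + 1), and the dotted line the median of all genes on that TPM scale. PPP1R15A, HSPA5 and SEC61B are the dark circles, most diamonds lie to the right of their circles, and SERP1 and SEL1L show wide gaps.

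SEC61 is the channel through which new proteins cross or enter the ER membrane, and its subunits differed in their values. SEC61B (ENSG00000106803, chromosome 9, 99222064 to 99230615), the beta subunit, was at 64.8, 63.0 and 66.4 CPM in DMSO and at 56.0, 61.8 and 53.3 CPM in BPAF. The groups did not overlap, though BPAF replicate 2 came close to DMSO. SEC61B fell by 0.18 on the log2 scale (SE 0.052, edgeR adjusted p = 0.0400), or 12.0% lower. It passed in 8 of 18 alternatives (adjusted p from 0.00484 to 0.340), and was lost with upper quartile scaling (0.0552), DESeq2 (0.0703), the replicate block (0.0606) and TPM. It was also lost without DMSO replicate 1 (0.122), DMSO replicate 3 (0.121), BPAF replicate 1 (0.158) or BPAF replicate 3 (0.199). None of the 4 motifs named above is in its promoter window.

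SEC61G, the gamma subunit, was at 45.2, 43.4 and 48.9 CPM in DMSO and at 37.4, 39.7 and 43.3 CPM in BPAF. The highest BPAF library was just under the lowest DMSO library. Its log2 fold change, -0.19 (SE 0.061), was close to that of SEC61B and did not pass (edgeR adjusted p = 0.0695). It passed in 4 of 18 alternatives, those with the replicate block, with no filter on low counts, without DMSO replicate 2 and without BPAF replicate 3 (adjusted p from 0.0170 to 0.346 over the 18). SEC61A1, which forms the pore itself, had a level of 262 ± 6.69 CPM in DMSO (SD, n = 3) and 262 ± 6.55 CPM with BPAF (0.0031, SE 0.031). The groups of SEC61A1 overlapped, and whether its change differs from that of the small subunits was not tested.

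SERP1 stabilises membrane proteins at the translocon under stress. Its level was 163 ± 2.79 CPM in DMSO (SD, n = 3) and 168 ± 4.62 CPM with BPAF, with overlapping groups (log2 fold change 0.045, SE 0.032, edgeR adjusted p = 0.486). Its deposited TPM was 88.4 ± 2.26 in DMSO and 109.6 ± 3.17 with BPAF, and the ranges did not overlap. The TPM that SERP1 received per CPM was 0.542 ± 0.00948 in DMSO and 0.652 ± 0.00889 in BPAF. That ratio moved by 0.27 on the log2 scale, against a median of 0.085 over 13642 tested genes with a mean TPM of at least 1. The exons of SERP1 overlap EIF2A and SELENOT on the opposite strand.

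The TRAP complex (SSR1 to SSR4) sits beside the channel and helps some signal sequences to insert. Of its 4 genes 0 were called, and all 4 had log2 fold changes below 0, from -0.12 to -0.054. SSR3 was at 108, 109 and 104 CPM in DMSO and at 100.3, 94.7 and 101 CPM in BPAF (-0.12, SE 0.038, edgeR adjusted p = 0.0774). SSR1 was at 136, 135 and 142 CPM in DMSO and at 132.1, 129.4 and 130.03 CPM in BPAF (-0.079, SE 0.034, edgeR adjusted p = 0.191). In SSR1, SSR2 and SSR3 the groups did not overlap. BPAF libraries lay lower without overlap in 12.8% of all tested genes and 17.7% of those at that level. SSR4 was at 84.5, 79.5 and 86.2 CPM in DMSO and at 77.0, 79.6 and 78.8 CPM in BPAF, with overlap (-0.089, SE 0.042, edgeR adjusted p = 0.243). With TPM, SSR1 and SSR2 were above 0 (0.0086 and 0.031).

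The signal peptidase subunits SPCS1, SPCS2 and SPCS3 gave 0 calls, with log2 fold changes of -0.056, -0.080 and -0.037. The groups overlapped in SPCS1 and SPCS2 and did not in SPCS3. With TPM, SPCS1 and SPCS3 were above 0 (0.019 and 0.061).

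Levels between genes were compared by TPM, which is corrected for length. In DMSO, CALR stood at 1059 ± 20.8 TPM and HSP90B1 at 490.5 ± 22.3 (SD, n = 3), well apart. HSPA5 (315 ± 11.4) and SEC61G (315 ± 12.8) followed and did not differ beyond their spread, nor did SSR4 (284 ± 7.91) and SEC61B (280.1 ± 2.65). The subunits of a complex were not at equal levels. SEC61A1 was at 111 ± 6.64 TPM, and within TRAP the order was SSR4, SSR2 (165 ± 2.03), SSR3 (74.2 ± 9.36) and SSR1 (63.5 ± 2.78), the last pair not differing beyond their spread. Signal peptidase subunits were at 131 ± 1.32 (SPCS1), 118 ± 9.32 (SPCS2) and 48.1 ± 2.00 TPM (SPCS3). Of the sensors, ATF6 was at 36.3 ± 1.97, EIF2AK3 at 9.77 ± 1.17 and ERN1 at 4.41 ± 0.25 TPM. The lowest level was that of ERN1 and the next that of DNAJB9, 6.18 ± 0.76.

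**Figure D3:**
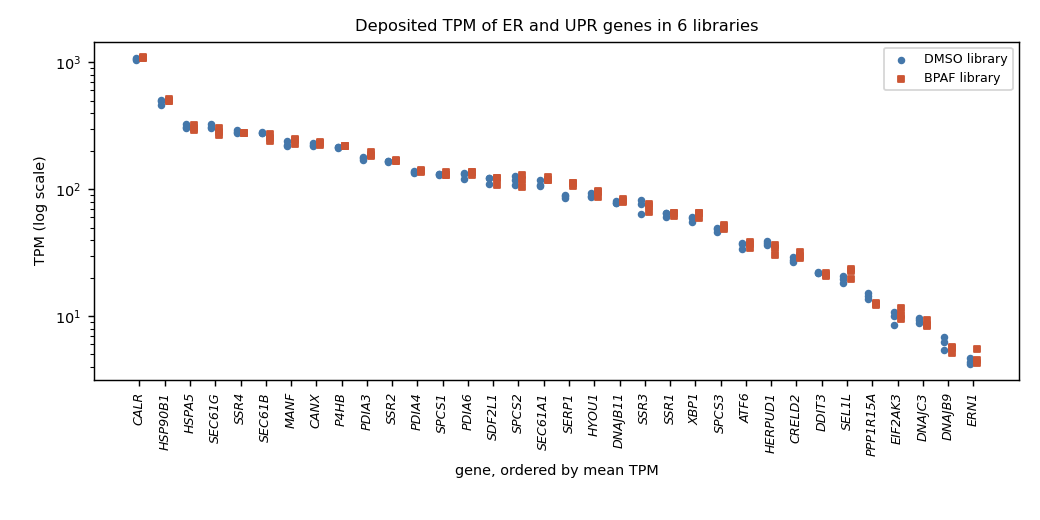
Points give the deposited TPM (log scale) of each gene in each library, with genes ordered by mean TPM; circles are DMSO, squares BPAF. Levels run from ERN1 near 4.41 TPM to CALR near 1059 TPM, and the groups lie close together at every gene compared with that span.

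Replicates agreed closely within a group. The coefficient of variation of the 34 genes had a median of 3.20% in DMSO and 2.89% in BPAF, ranging from 0.475% to 9.20% and from 0.338% to 12.7%. The median deviation of the 34 genes from their DMSO mean was 0.0043, -0.019 and 0.029 in the DMSO libraries and -0.068, -0.051 and -0.065 in the BPAF libraries, on the log2 scale. In BPAF libraries 29, 25 and 28 of the 34 genes were below their DMSO mean, and in DMSO libraries 16, 22 and 10. DMSO replicate 2, at 22, thus came near BPAF replicate 2, at 25. Over all tested genes the share was 49.3%, 48.8% and 48.8% in BPAF libraries and 49.9%, 49.7% and 49.5% in DMSO libraries.

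The genes with and without an ERSE are given side by side, as their difference was not tested. The 8 genes with the element had a median log2 fold change of -0.033, with 5 below 0 and 1 called (HSPA5). The 24 genes with a promoter sequence and no ERSE match had a median of -0.080, with 20 below 0. The called genes PPP1R15A and SEC61B are among these 24, as are the genes named above with an ERSE-II or the UPR element core. Of all tested genes, 49.2% were below 0 and 3.4% were called lower. At the level of the 34 genes or above, the shares were 55.6% and 5.11%. Of 17 other genes with an ERSE, 7 were tested, and EIF2A, a translation initiation factor gene that shares its start region with SERP1, was the 1 called among them. In DMSO the level of EIF2A was 126 ± 3.54 CPM (SD, n = 3), and with BPAF it fell by 0.18 on the log2 scale to 111 ± 3.02 (edgeR adjusted p = 0.00674). FICD, which modifies BiP, and ERO1B, an ER oxidase, both carry the element and stood at 0.11 (SE 0.15) and -0.022 (SE 0.11).

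Further genes of the secretory route gave 16 falls and 2 rises among 134 tested, over 6 lists, with a median of -0.039. These lists too were chosen with earlier results of these data known, so their shares are descriptions. The falls were 11.9% of the 134, beside 3.4% of all tested genes called lower, 2.65% called higher, and 5.11% called lower at the level of the 34 genes or above. The signal recognition particle (SRP) brings ribosomes to the ER. Of 28 genes in the SRP and translocation list, 8 fell (28.6%, beside 3.4% of all tested genes and 5.11% at the level of the 34 genes or above) and 1 rose. In that list 23 of the 28 (82.1%) were below 0, beside 49.2% of all tested genes and 55.6% at that level, and the median was -0.087. SRP14 fell from 314 ± 4.57 to 276 ± 6.67 CPM (log2 fold change -0.19, SE 0.029, edgeR adjusted p = 0.00104), and SRP9 (-0.15), SRP72 (-0.15), SRP19 (-0.17) and SRP54 (-0.14) fell too. TRAM1, a translocating chain protein next to SEC61, fell from 160 ± 6.85 to 140.5 ± 3.20 CPM (-0.19, SE 0.036, edgeR adjusted p = 0.00371). GET3 (-0.16) and EMC6 (-0.19), which insert other classes of membrane proteins, completed the falls. The rise was that of SEC61A2, the paralogue of SEC61A1, from 26.5 ± 1.54 to 31.4 ± 2.04 CPM (0.24, SE 0.066, edgeR adjusted p = 0.0351). Counts of both paralogues were mostly not whole, and whether reads were divided between them was not tested. SRP14, SRP9 and TRAM1 passed in each of the 6 fits with a library left out and SRP72 in 5. GET3 and EMC6 passed in 1, SEC61A2 in 2, and SRP19 and SRP54 in 0. SRP19 was at 0.00027 with log2(TPM + 1).

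Oligosaccharyltransferase attaches glycans to chains as they enter the ER. In that list 3 of 18 genes fell (16.7%, beside 3.4% of all tested genes and 5.11% at the level of the 34 genes or above), all subunits of the enzyme or its partners: DAD1 from 74.9 ± 3.60 to 64.3 ± 1.07 CPM (-0.22, SE 0.045, edgeR adjusted p = 0.00674), OSTC (-0.19) and RPN1 (-0.15). DAD1 and OSTC passed in each of the 6 fits with a library left out and RPN1 in 4. Of 24 oxidative and other luminal folding enzymes, 3 fell (12.5%, beside the same 3.4% and 5.11%): PPIB (-0.11), a prolyl isomerase, CNPY2 (-0.16) and TXNDC12 (-0.16), each passing in 1 of those 6 fits. CNPY2 was above 0 with TPM (0.026).

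Among 21 UPR regulators and transcription targets, ATF4 and RTCB fell. These falls were 9.52% of that list, beside 3.4% of all tested genes and 5.11% at the level of the 34 genes or above. ATF4, the transcription factor favoured by PERK and by other kinases of the same branch, went from 446 ± 2.92 to 393 ± 15.2 CPM (-0.18, SE 0.030, edgeR adjusted p = 0.00155), and passed in each of the 6 fits with a library left out. RTCB, the ligase that joins spliced XBP1, fell by 0.13 and passed in 1 of them. The list median was -0.0043. Of 22 other degradation genes, 1 rose and 0 fell, beside 2.65% of all tested genes called higher and 3.4% called lower. The rise was that of UBE2G2, a ubiquitin-conjugating enzyme, from 247.7 ± 4.496 to 278 ± 5.17 CPM (0.17, SE 0.029, edgeR adjusted p = 0.00222). UBE2G2 passed in each of the 6 fits with a library left out. UBE2J1 had the next smallest p (-0.14, edgeR adjusted p = 0.0769). COPII export and KDEL retrieval gave 0 calls in 21 genes, with 1 unadjusted edgeR p under 0.05, that of TMED2 (-0.089), and MCFD2 (-0.097) next.

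**Figure D4:**
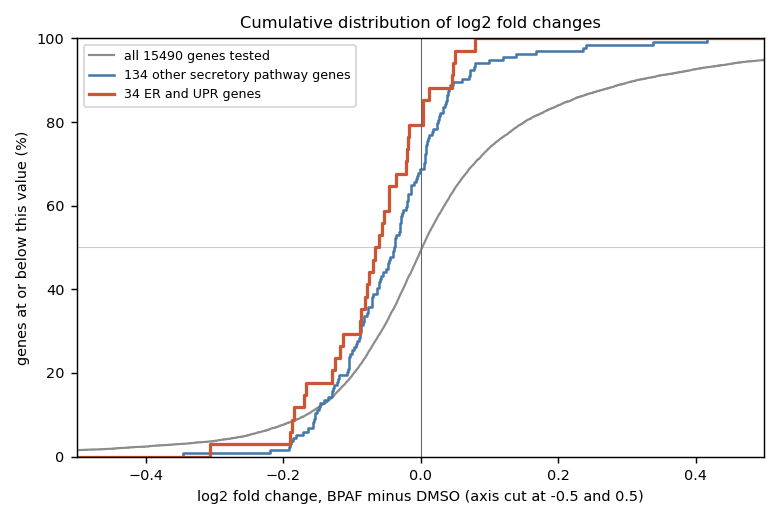
Curves give the percent of genes at or below each log2 fold change (BPAF minus DMSO, counts) for all tested genes, the 134 other secretory pathway genes and the 34 ER and UPR genes. The curve of the 34 genes crosses the middle at -0.064, that of the 134 at -0.039 and that of all genes at 0.0019, and the curve of all genes is the widest.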

How the data were processed

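RNA sequencing libraries of polyadenylated RNA were stranded and paired-end, per the labels' protocols. Alignment with HISAT2 and counting with featureCounts, after cutadapt and FastQC, on GRCh38 (hg38) are named in the submitters' processing notes, without versions. The deposited count table holds estimated counts, many with decimals, and a second deposited table holds TPM. The sources used here do not give how decimals and TPM arose. Of 60856 features, 192 carry no Ensembl identifier and took 0.243% to 0.271% of counts. Deposited counts were whole in every library for 8 of the 34 genes (tolerance 1e-09), and exons of 19 overlap another gene in GENCODE release 29.

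After rounding, genes were kept by filterByExpr, and edgeR 4.0.16 gave TMM factors and quasi-likelihood tests (R 4.3.3, robust, no covariate, two-sided, Benjamini-Hochberg over 15490 genes, threshold 0.05). SE is the log2 fold change divided by the square root of F. The test was checked on simulated counts, with 200 genes above a minimum count changed by a known fold. It recovered 61% of them at 1.2-fold, 87% at 1.5-fold and 97% at 2-fold. Changes under 1.2-fold were not simulated, so a gene without a call may still have changed by a small amount. Promoters were searched in Python 3.11.15. Alternatives used limma 3.58.1 and DESeq2 1.42.0. The genes and lists were chosen with earlier results of these data known. Values per library are given for genes with an unadjusted p under 0.05, the sensors and their outputs, HSPA5 and the most abundant gene; from other lists, genes past the threshold and the 2 smallest p. With 3 libraries a group, p-values set the group difference against the spread between these libraries, moderated over all tested genes. The strand setting of the counting and its handling of overlapping genes are not stated in those sources. One B cell marker is not reported here.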

Additional observations from a re-analysis of the deposited data

How the results depend on the processing

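The median of the 34 genes stayed between -0.051 and -0.074 in the other count-based fits, and was 0.0302 in limma on log2(TPM + 1) and 0.0303 on log2(TPM + 0.1). On those TPM scales the median of all tested genes was 0.078 and 0.089, and 25 and 26 of the 34 lay below it. Genes called over the whole table numbered 938, 0 and 4 in limma on TPM (with 2911 and 2963 unadjusted p under 0.05), and 322 to 861 with a library left out, the counts without BPAF replicate 1, BPAF replicate 3 and DMSO replicate 1 being 322, 392 and 482. Falls made up 56.2% of the calls, 46.5% with upper quartile scaling and 71.5% with an offset for GC content and exon length, an alternative chosen after seeing the data. Of the 34 genes, 3 were called, against 0 in limma on TPM, 5 with no filter on low counts, and 0 to 6 with a library left out. They were 0 without BPAF replicate 1 (9 unadjusted p under 0.05), 1 without DMSO replicate 3 and 6 without DMSO replicate 2. The direction turned in limma on log2(TPM + 1) and log2(TPM + 0.1) for ATF6 (0.0090 and 0.0092), CALR (0.044 in both), CANX (0.037), CNPY2 (0.026 and 0.027), DNAJB11 (0.033 and 0.034), HSP90B1 (0.029), HYOU1 (0.038), MCFD2 (0.017 and 0.018), P4HB (0.033), PDIA3 (0.11), PDIA4 (0.027), PDIA6 (0.066 and 0.067), SEL1L (0.16), SPCS1 (0.019), SPCS3 (0.061 and 0.062), SRP19 (0.00027 and 0.00026), SSR1 (0.0086 and 0.0087) and SSR2 (0.031). It also turned for MANF with the offset (-0.026), for SEC61A1 with the offset (-0.026) and with no filter (-0.00062), and for XBP1 with no filter (-9.1e-05). With a library left out it turned for DNAJB11 (-0.046 to 0.022), PDIA6 (-0.052 to 0.0083), MANF (-0.032 to 0.057), EIF2AK3 (-0.028 to 0.098), XBP1 (-0.048 to 0.042) and SEC61A1 (-0.019 to 0.020). Direction here is the sign against 0. Of the genes that turned with TPM, all but PDIA3 and SEL1L lay below the median of all tested genes on those scales. The cause of these turns was not tested. The replicate block gave 826 calls over the whole table and 3 among the 34 genes, with SEC61G in place of SEC61B. Same-numbered libraries deviated from their group means with correlations of -0.043 to 0.014. These values show no shared deviation by number, and with 3 libraries a group they cannot exclude that cultures were handled in pairs. Among the 34 genes the SE was 0.027 to 0.12, which limits what differences could be seen.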

Other observations

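Deposited TPM and counts diverged for SEL1L as they did for SERP1. SEL1L, the adaptor of the HRD1 ubiquitin ligase, received 0.200 ± 0.00565 TPM per CPM in DMSO and 0.245 ± 0.0184 in BPAF (SD, n = 3), a shift of 0.29 on the log2 scale. The median shift over 13642 tested genes was 0.085, and 5% of them lay above 0.257. All 6 libraries of SEL1L had whole counts. DNAJB9 had the lowest shift of the 34 genes, -0.063. SEL1L, SERP1 and DNAJB9 are named because of these values.

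The neighbours on the opposite strand of SERP1 both fell: EIF2A by 0.18 and SELENOT, a selenoprotein gene of the ER, by 0.18 (edgeR adjusted p = 0.0138), with 96.6 ± 3.75 CPM in DMSO and 85.2 ± 3.13 in BPAF. The summed level of SERP1 and EIF2A was 289 ± 6.32 CPM in DMSO and 279 ± 4.66 in BPAF. Whether reads were divided between overlapping genes was not tested.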
